A study of Rattus norvegicus with 60 samples.

Results

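The 6 genes of matrix-degrading proteases (Mmp2, Mmp7, Mmp8, Mmp9, Mmp12 and Mmp14) and 3 genes of their tissue inhibitors (Timp1, Timp2 and Timp3) were followed in rat lungs after inhalation of crystalline silica. They were chosen by name, as genes of the matrix metalloproteinase and Timp families to be set against each other. They are not the whole of either family, and 8 other matrix metalloproteinases that could be tested are given further below. Each had exactly 1 row in the deposited signal table, and all 9 were among the 13918 genes tested, out of 21792 in the table. The 60 rats were males of the CDF Fisher 344 strain, about 3 months old by the labels. Of them 40 had breathed silica dust at 15 mg/m3, 6 hours daily over 5 days, and 20 controls had breathed air. Lungs were taken 1, 2, 4, 8 or 16 weeks after the last exposure, from 8 silica and 4 air rats each time, and every rat gave 1 Illumina BeadChip array of whole-lung RNA. Each week had its own air controls of that week, and no rat was sampled more than once.

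Matrix metalloproteinases are zinc enzymes that cut collagens, elastin, laminins and many signalling proteins. Most are secreted as inactive precursors, and Timp proteins block their active sites. Their expression is largely set at transcription by cytokines, and in the lung macrophages, neutrophils, epithelium and fibroblasts each make a different selection of them. Macrophage elastase (Mmp12) is known from mice for its part in the loss of elastic tissue under smoke, and Timp1 is known as a gene induced in injured lungs. The arrays measured RNA, not protein or enzyme activity.

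Mmp12, Mmp8 and Mmp7 lie in 1 gene cluster on rat chromosome 8. In the RefSeq annotation of assembly GRCr8 they stand at positions 1, 6 and 9 of a stretch of 9 protein-coding genes, all of them matrix metalloproteinases (Mmp12, Mmp1b, Mmp3, Mmp1, Mmp10, Mmp8, Mmp27, Mmp20 and Mmp7). Mmp2 lies on chromosome 19, Mmp9 on 3, Mmp14 on 15, Timp1 on X, Timp2 on 10 and Timp3 on 7. RefSeq promoter sequences (250 bases before to 50 after the start, GRCr8) were at hand for 6 of the 9 genes. They are shown because the 3 clustered proteases and the 3 inhibitors, whose values follow, differ in the short motifs these windows hold. Each is written 5′ to 3′ in the direction of the gene, with capitals for the TATA box letters TATAAA, the AP-1 site TGAGTCA and the GC box GGGCGG, each searched on both strands.
Mmp12 (chr8:12866402-12866701, plus strand): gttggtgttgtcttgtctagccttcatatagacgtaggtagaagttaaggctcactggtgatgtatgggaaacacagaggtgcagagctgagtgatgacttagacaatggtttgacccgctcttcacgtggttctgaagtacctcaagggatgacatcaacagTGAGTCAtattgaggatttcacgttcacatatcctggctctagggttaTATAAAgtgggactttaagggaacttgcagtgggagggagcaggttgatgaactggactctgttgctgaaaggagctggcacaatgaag
Mmp8 (chr8:13008640-13008939, plus strand): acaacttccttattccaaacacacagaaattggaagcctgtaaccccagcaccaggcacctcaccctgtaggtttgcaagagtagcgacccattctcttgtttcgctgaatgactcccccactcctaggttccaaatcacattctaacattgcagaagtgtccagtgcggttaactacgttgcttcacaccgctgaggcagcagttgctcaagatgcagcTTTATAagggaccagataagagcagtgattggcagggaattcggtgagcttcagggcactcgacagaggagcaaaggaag
Mmp7 (chr8:13132793-13133092, plus strand): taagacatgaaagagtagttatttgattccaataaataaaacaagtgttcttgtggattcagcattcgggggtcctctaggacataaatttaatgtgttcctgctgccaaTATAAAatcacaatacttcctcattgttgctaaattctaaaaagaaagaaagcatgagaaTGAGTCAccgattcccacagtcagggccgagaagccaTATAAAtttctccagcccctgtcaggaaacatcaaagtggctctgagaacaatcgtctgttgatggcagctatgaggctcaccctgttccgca
Timp1 (chrX:3771073-3771372, minus strand): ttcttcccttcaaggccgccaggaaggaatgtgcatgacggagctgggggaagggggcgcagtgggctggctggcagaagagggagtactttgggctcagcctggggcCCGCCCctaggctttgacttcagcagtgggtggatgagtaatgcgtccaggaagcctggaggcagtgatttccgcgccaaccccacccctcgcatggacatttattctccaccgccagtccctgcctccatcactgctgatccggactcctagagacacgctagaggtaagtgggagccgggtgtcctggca
Timp2 (chr10:104089165-104089464, minus strand): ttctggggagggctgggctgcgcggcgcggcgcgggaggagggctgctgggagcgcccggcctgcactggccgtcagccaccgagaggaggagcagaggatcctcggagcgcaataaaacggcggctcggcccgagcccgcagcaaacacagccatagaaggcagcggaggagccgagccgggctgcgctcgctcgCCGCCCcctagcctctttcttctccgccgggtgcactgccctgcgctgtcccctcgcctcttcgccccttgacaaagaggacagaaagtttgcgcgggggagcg
Timp3 (chr7:19459509-19459808, minus strand): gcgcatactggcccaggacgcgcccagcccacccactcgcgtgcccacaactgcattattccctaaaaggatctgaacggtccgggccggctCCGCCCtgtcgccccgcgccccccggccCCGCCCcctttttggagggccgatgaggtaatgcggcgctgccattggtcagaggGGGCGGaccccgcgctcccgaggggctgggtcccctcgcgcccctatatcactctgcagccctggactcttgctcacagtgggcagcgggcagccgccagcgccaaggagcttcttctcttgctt

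All 3 clustered proteases held TATAAA or its reverse, TTTATA, beginning 39 (Mmp12), 30 (Mmp8) and 43 bases (Mmp7) before the start, and Mmp7 held another at 140. The AP-1 letters stood in Mmp12, 87 bases before the start, and in Mmp7, 80 bases before it. None of the 3 inhibitors held either motif in this window, and each held at least 1 GC box (Timp1 at 142, Timp2 at 54, Timp3 at 158, 130 and 75 bases before the start). No matches overlapped. Among all 33469 rat promoters in the table, 14.2% held TATAAA, 4.63% the AP-1 letters and 33.1% the GC box on either strand. Only these exact letters were searched, so variant forms of a site were not counted. These matches describe letters, and binding was not measured.

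Median signals ranged over the arrays from 60.18 to 97.8, and each array detected 11225 to 12594 rows (detection p under 0.05). Of the 9 genes, 8 were detected on 56 to 60 arrays, and Mmp7 on 17. The tissue label was borne out by the markers of type I, type II and endothelial cells, all detected on 60 arrays. In the order in which the arrays were deposited they formed 8 runs: 4 of 10 arrays held 1 rat of each group, and 4 of 5 arrays held silica rats alone. No label names these runs a batch. Deviations from the group means correlated more within a run (median 0.178) than between runs (-0.039), so differences within the 4 complete runs are given beside the results. Heart muscle markers varied widely (mean of 5 genes 5.00 to 10.3 over all rats). At 16 weeks 4 of the 5 were lower in silica than in air, where 12.2% of all genes were. Correlations of the 9 genes' deviations with those of the heart markers lay between -0.33 (Timp1) and 0.12 (Mmp2). Deviations leave out any difference between silica and air groups. With those differences included, correlations over the 60 arrays lay between -0.42 (Mmp14) and 0.19 (Timp2). Whether heart tissue in a sample bore on the silica effects was not tested. In the mean effect, the marker lists whose counts are not given below had 4 of 6 type I cell genes lower and 1 of 7 fibroblast genes lower. They had 0 of 5 club cell genes, 1 of 7 liver genes higher and 1 lower, and 2 of 6 T cell genes lower. They also had 1 of 5 erythroid genes lower and 0 of 5 heart genes. Of all genes tested 14.6% were higher and 20.6% lower in that effect, so the smaller of these counts lie near the share of all genes.

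All values are log2 of background-corrected, normalized signal, and a silica effect is the difference of the silica and air means with its standard error (8 and 4 rats). Levels are compared between rats for the same gene only, since probes differ in brightness. Each adjusted p is limma's, with Benjamini-Hochberg adjustment over 13918 genes, and a gene passed when it was under 0.05. The labels number separate rats, so these p-values measure the spread between rats, pooled over all 10 groups in 1 fit. A gene's standard error was therefore the same at every week, even where its own spread differed. For Mmp7 the SD was 0.03 in air rats at 2 weeks and 0.60 in silica rats at 16 weeks. The main fit took the arrays as independent and made no allowance for runs. In whole lung, more cells of a type and more RNA per cell cannot be told apart.

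After silica 4 of the 6 proteases were higher at both late times, led by Mmp12, while of the 3 inhibitors 1 was lower then and none higher. At 1 week 1 of the 9 genes passed at 1 week (Mmp12), where 3.79% of all genes tested did. At 2 weeks Mmp12 and Mmp14 passed, 2 of 9, against 9.27% of all genes. At 4 weeks Mmp12 alone passed, 1 of 9, against 6.42%. At 8 weeks and again at 16 weeks 5 of 9 passed (Mmp7, Mmp8, Mmp12 and Mmp14 higher, Timp2 lower), where 8.91% and 22.7% of all genes did. For the mean effect over the 5 times 7 of 9 passed, all but Mmp2 and Timp1, where 35.2% of all genes did. The median effect of all genes was -0.012, against a range from -0.16 to 2.29 among the 9.

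**Figure D1:**
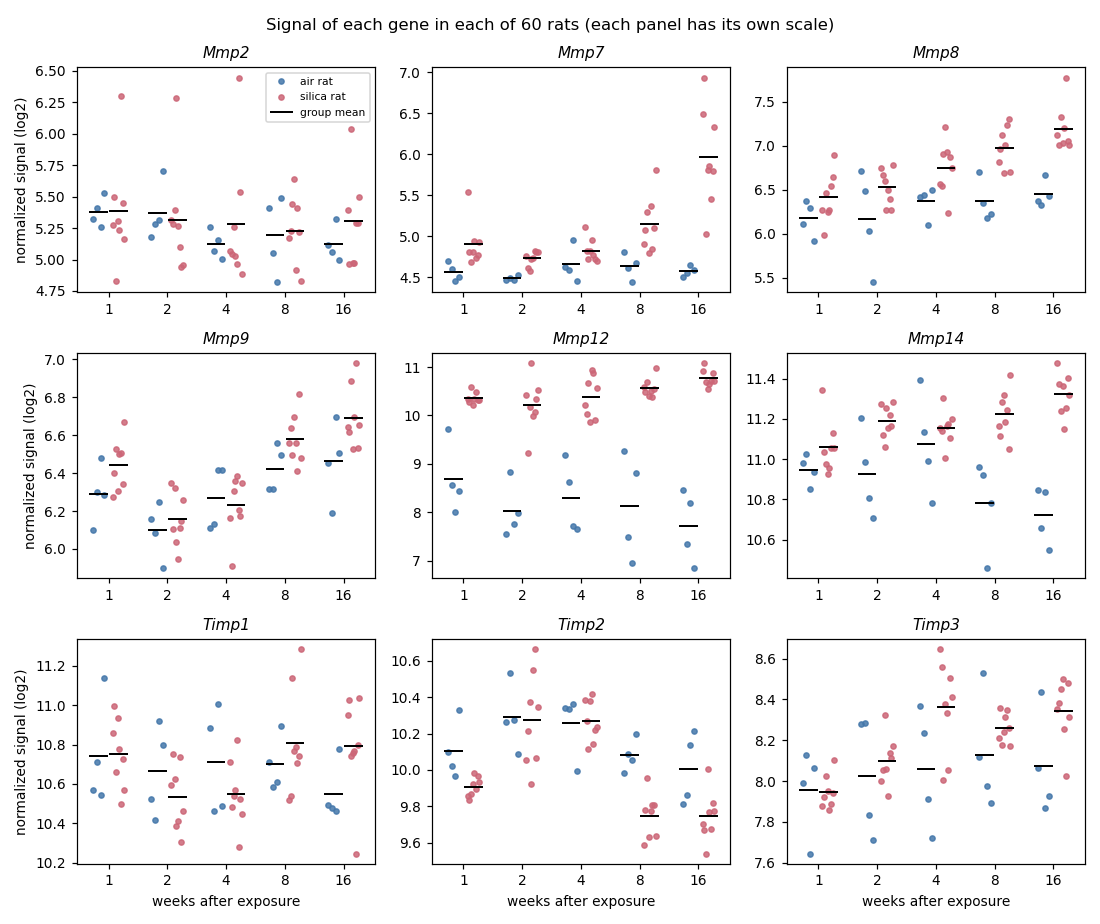
Normalized log2 signal of the 9 genes (1 panel each, with its own scale) in every rat, by weeks after exposure: blue points are air rats (4 a week), red points silica rats (8 a week) and black lines group means. The silica rats of Mmp12 lie above all air rats of their week at every time, Mmp7 climbs at 16 weeks, and the 2 arms of Timp1 overlap throughout.

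Mmp12 encodes macrophage elastase, which degrades elastin. At 1 week the air rats read 8.00, 8.45, 8.55 and 9.71, and the silica rats 10.21 to 10.58 with a median of 10.33. At 2 weeks air rats read 7.55, 7.76, 7.98 and 8.84 and silica rats 9.23 to 11.07 (median 10.25). At 4 weeks they read 7.65, 7.71, 8.62 and 9.19 in air and 9.87 to 10.93 (median 10.39) after silica. Every silica rat stood above every air rat of its week at these 3 times. At 8 weeks the air values were 6.95, 7.50, 8.81 and 9.27 and the silica values 10.38 to 10.98 (median 10.52). At 16 weeks they were 6.86, 7.35, 8.19 and 8.46 in air and 10.55 to 11.07 (median 10.71) after silica. Again no silica rat came near the range of air. The difference was 1.68 ± 0.30 at 1 week (3.21-fold, adjusted p = 0.000163) and 3.06 ± 0.30 at 16 weeks (8.32-fold, adjusted p = 1.65e-11).

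Mmp12 was the only one of the 9 genes to pass at all 5 times, and by the mean effect (2.29 ± 0.14, 4.90-fold, adjusted p = 9.97e-21) it ranked at place 38 of 13918 genes by p. In all 20 pairs of a silica and an air array of the same week and run the silica rat was higher, by 0.58 to 3.80. The 10 group means fell into an air block from 7.71 (16 weeks) to 8.68 (1 week) and a silica block from 10.23 (2 weeks) to 10.77 (16 weeks). Neighbours in that order overlapped in every case, including the highest air group and the lowest silica group, which come from different weeks. Air rats scattered more than silica rats: the SD within a week was 0.57 to 1.09 in air and 0.12 to 0.53 after silica. The effect grew by 0.30 ± 0.10 per doubling of weeks, which did not pass (adjusted p = 0.092, lower at 0.0358 without air replicate 1 of 8 weeks and 0.0422 without air replicate 1 of 16 weeks). In air rats the slope was -0.18 ± 0.08 (adjusted p = 0.305).

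Mmp7, matrilysin, a small protease made chiefly by epithelium, was near background in air: 1 of 20 air arrays detected it. At 1 week the air rats read 4.46 to 4.70 and the silica rats 4.68 to 5.54 (median 4.81), with 2 of 8 detected. At 8 weeks air rats read 4.44 to 4.80 and silica rats 4.79 to 5.80 (median 5.09), with 5 of 8 detected. At 16 weeks air rats read 4.50, 4.55, 4.59 and 4.65, and silica rats 5.03 to 6.93 (median 5.83), with 7 of 8 detected. All 8 silica rats then exceeded all 4 air rats. Because air was not above background, folds were taken against the lowest detected signal of each air array where the gene's own signal was lower. The silica means included arrays that did not detect Mmp7, so these folds are approximate and not strict lower bounds. They were 1.14-fold at 1 week (adjusted p = 0.363), 1.33-fold at 8 weeks (adjusted p = 0.0499) and 2.36-fold at 16 weeks (adjusted p = 1.22e-08). Each adjusted p belongs to the difference of the measured means. The measured means at 16 weeks were 4.57 in air and 5.96 after silica. At 2 weeks neither group was detected on any array, and at 4 weeks 1 air and 2 silica arrays were. The call at 8 weeks sat at the threshold. It was lost without air replicate 2, 3 or 4 or silica replicate 2, 3, 5, 7 or 8 (adjusted p up to 0.198, without air replicate 3). Median scaling (0.128), the authors' values (0.0874), no detection filter (0.0771) and array weights (0.0683) ended it too. So did an intensity trend with robust eBayes (0.0502), the 40 arrays of complete runs (0.134) and each time fitted alone (0.0734).

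Within runs the silica rat was higher in 19 of 20 pairs. The silica effect on Mmp7 differed among the times (F = 8.19, adjusted p = 0.00623), and its slope per doubling of weeks was 0.24 ± 0.06 (adjusted p = 0.0111). Mmp14 was the other gene of the 9 to pass each of these tests, where 1.96% and 1.75% of all genes passed. Without week 16 neither gene's slope passed (adjusted p = 0.998 for each), and without week 2 that of Mmp7 did not (0.0607). For the slope in air rats none of the 9 passed under limma's test, against 1.93% of all genes. At an unadjusted p under 0.05, 3 did so (Mmp9 at 0.00656, Mmp14 at 0.00878 and Mmp12 at 0.0229), where 11.5% of all genes did.

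Mmp8 encodes neutrophil collagenase. At 1 week the air rats read 5.92, 6.11, 6.29 and 6.37 and the silica rats 5.98 to 6.89 (median 6.36), and the groups overlapped. At 8 weeks air rats read 6.18, 6.22, 6.35 and 6.71 and silica rats 6.69 to 7.31 (median 6.99). At 16 weeks air rats read 6.33, 6.38, 6.43 and 6.67 and silica rats 7.01 to 7.78 (median 7.09). The groups touched at 8 weeks and were apart at 16. The effect was 0.24 ± 0.16 at 1 week (adjusted p = 0.53), 0.36 ± 0.16 at 2 weeks (adjusted p = 0.165, but 0.0313 without air replicate 1) and 0.38 ± 0.16 at 4 weeks (adjusted p = 0.151). It reached 0.61 ± 0.16 at 8 weeks (1.53-fold, adjusted p = 0.00874, but 0.0608 without air replicate 3) and 0.74 ± 0.16 at 16 weeks (1.67-fold, adjusted p = 0.000405). Although the estimates stand in the order of the weeks, neither the slope (0.13 ± 0.05, adjusted p = 0.231) nor the difference among times (adjusted p = 0.587) passed. Within runs 17 of 20 pairs were positive.

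Mmp14 encodes the membrane-anchored MT1-MMP, which cuts collagen at the cell surface and activates pro-Mmp2. At 8 weeks the air rats read 10.46, 10.78, 10.92 and 10.96 and the silica rats 11.05 to 11.42 (median 11.22). At 16 weeks air rats read 10.55, 10.66, 10.84 and 10.85 and silica rats 11.15 to 11.48 (median 11.34). The groups were apart at both times, while at 1, 2 and 4 weeks they overlapped. The effect was 0.11 ± 0.09 at 1 week, 0.26 ± 0.09 at 2 weeks (adjusted p = 0.0381) and 0.08 ± 0.09 at 4 weeks. It was 0.44 ± 0.09 at 8 weeks (1.36-fold, adjusted p = 0.000189) and 0.60 ± 0.09 at 16 weeks (1.52-fold, adjusted p = 2.1e-07). The call at 2 weeks was lost without air replicate 3 or 4 or silica replicate 1, 4, 6 or 8 (adjusted p up to 0.302, without air replicate 4), and under median scaling (0.10, adjusted p = 0.729). The effect differed among times (F = 6.77, adjusted p = 0.0194, but 0.0518 and 0.0623 without air replicate 2 or 4 of 16 weeks and 0.485 under median scaling). Median scaling also ended the call at 8 weeks (0.47, adjusted p = 0.0514) and that of the slope (0.13, adjusted p = 0.332), and the slope was lost in the 40 arrays of complete runs (0.10, adjusted p = 0.0886). Within runs the silica rat was higher in 18 of 20 pairs.

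Mmp9, gelatinase B of neutrophils and macrophages, changed by little. Silica rats read 6.28 to 6.67 at 1 week and 6.53 to 6.98 at 16 weeks, against 6.10 to 6.48 and 6.19 to 6.69 in air. The groups overlapped at all 5 times. The mean effect was 0.11 ± 0.04 (1.08-fold, adjusted p = 0.0247), and no single week passed. The largest was 0.23 ± 0.09 at 16 weeks (adjusted p = 0.0603), which passed without air replicate 3 (0.02) or silica replicate 4 (0.0409) or 7 (0.042). The call on the mean was lost without air replicate 1 of 1 week (0.0512), air replicate 4 of 2 weeks (0.0547) or air replicate 2 of 16 weeks (0.0604), and without week 1, 8 or 16 (adjusted p up to 0.16, without week 16). With run as a block, the 40 arrays of complete runs lost it too (0.10, adjusted p = 0.0574), while on all arrays the 16-week effect passed (0.22, adjusted p = 0.0408). Within runs 14 of 20 pairs were positive.

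Mmp2, gelatinase A, a protease of fibroblasts and other stromal cells, did not pass in any comparison. Its signal lay near background: before correction the group medians ran from 72.9 to 82.8, within the range of the array medians (60.18 to 97.8). A change in Mmp2 could therefore go unseen. Its mean effect was 0.07 ± 0.09 (adjusted p = 0.651), and effects by week lay between -0.05 and 0.18. In every week the highest silica rat (6.30, 6.29, 6.45, 5.64 and 6.04 from 1 to 16 weeks) belonged to the same run of 5 silica arrays, whose rats stood on average 0.84 above their group means. With run as a block the mean effect was -0.04 (adjusted p = 0.619), and in pairs of the same run and week the silica rat was higher in 7 of 20. The gene whose signal was most like that of Mmp2 was Krt12, a keratin (r = 0.751 over 60 arrays).

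Timp1 encodes the inhibitor that blocks most secreted matrix metalloproteinases. At 1 week the air rats read 10.54, 10.57, 10.71 and 11.14 and the silica rats 10.50 to 10.99 (median 10.75). At 4 weeks they read 10.46, 10.49, 10.88 and 11.01 in air and 10.28 to 10.82 (median 10.53) after silica. At 16 weeks they read 10.46, 10.48, 10.49 and 10.78 in air and 10.25 to 11.04 (median 10.78) after silica. The groups overlapped at every time, and no week passed. Effects ran from -0.16 ± 0.13 at 4 weeks (adjusted p = 0.508) to 0.24 ± 0.13 at 16 weeks (adjusted p = 0.191). The mean effect was 0.01 ± 0.06 (adjusted p = 0.891), and 8 of 20 pairs within a run were positive.

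Timp2, an inhibitor that also takes part in the activation of pro-Mmp2 by Mmp14, was lower after silica and passed at 8 and 16 weeks. At 8 weeks the air rats read 9.98, 10.06, 10.09 and 10.20 and the silica rats 9.59 to 9.96 (median 9.78). At 16 weeks air rats read 9.81, 9.86, 10.14 and 10.22 and silica rats 9.54 to 10.01 (median 9.74). The 8 silica rats lay below all air rats at 8 weeks, and 6 of 8 did at 16 weeks. The effect was -0.33 ± 0.09 at 8 weeks (adjusted p = 0.016, but 0.0833 without air replicate 4) and -0.26 ± 0.09 at 16 weeks (adjusted p = 0.0367). The later call was lost without air replicate 3 or 4 or silica replicate 1, 2, 3 or 6, with adjusted p up to 0.217 (without air replicate 4). Median scaling ended both calls (adjusted p = 0.184 and 0.0582), and the later one was also lost with no detection filter (0.0526), with array weights (0.0556) and with each time fitted alone (0.0619). At 1 week it was -0.20 ± 0.09 (adjusted p = 0.304, 7 of 8 silica rats below all air rats), at 2 weeks -0.02 and at 4 weeks 0.01. Neither the slope of the effect (-0.045 ± 0.03, adjusted p = 0.56) nor its difference among times (adjusted p = 0.336 by limma's F-test) passed. The mean effect was -0.16 ± 0.04 (adjusted p = 0.00212, 0.0736 without week 8). Within runs the silica rat was lower in 15 of 20 pairs, among them all 12 pairs of weeks 1, 8 and 16.

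Timp3, the inhibitor that is bound to the matrix and also blocks Adam17, had a mean effect of 0.15 ± 0.05 (1.11-fold, adjusted p = 0.0148), which did not hold without week 4 (0.085) or week 16 (0.106). It was also lost under median scaling (0.10, adjusted p = 0.223) and in the 40 arrays of complete runs with run as a block (0.15, adjusted p = 0.0624). Silica rats read 7.86 to 8.10 at 1 week and 8.03 to 8.50 at 16 weeks, against 7.64 to 8.13 and 7.87 to 8.44 in air. The groups overlapped at all times and no week passed. The largest effects were 0.30 ± 0.11 at 4 weeks (adjusted p = 0.0987) and 0.27 ± 0.11 at 16 weeks (adjusted p = 0.0825). The former passed without air replicate 1 (0.034), and the latter without air replicate 2 (0.0162) or silica replicate 6 (0.0395). Within runs 12 of 20 pairs were positive.

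**Figure D2:**
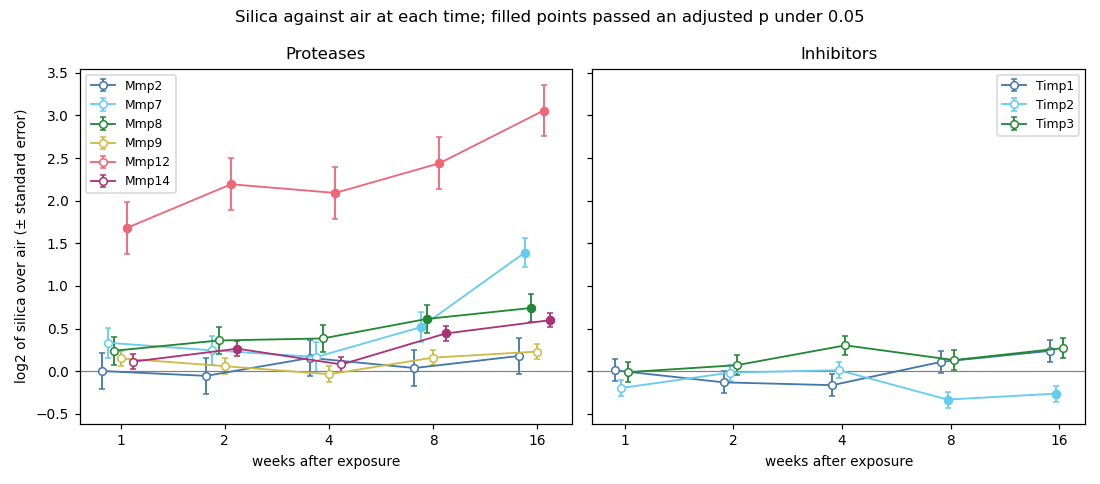
Difference of the silica and air means (log2) with its standard error by weeks after exposure, for the 6 proteases (left) and the 3 inhibitors (right), from 8 silica and 4 air rats a week. Filled points passed an adjusted p under 0.05: Mmp12 at all 5 times, Mmp7, Mmp8 and Mmp14 at 8 and 16 weeks, Mmp14 also at 2 weeks, and of the inhibitors Timp2 at 8 and 16 weeks, below 0.

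The balance of both sides was described in each rat as the mean log2 change of the 6 proteases from the air mean of the week, less that of the 3 inhibitors, each gene counting alike. It is a sum of chosen genes and carries no test. Silica rats stood at 0.49 ± 0.15 (SD, n = 8) at 1 week, 0.54 ± 0.24 at 2 weeks and 0.42 ± 0.23 at 4 weeks. They stood at 0.73 ± 0.05 at 8 weeks and 0.95 ± 0.19 at 16 weeks, where the proteases had a mean change of 1.03 and the inhibitors of 0.08. Every silica rat was above the air mean of 0 at every time, and above all 4 air rats of its week. The inhibitors' mean change in silica rats stayed between -0.07 and 0.08 across the 5 times.

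The balance counts the measured change of Mmp7 against air arrays that mostly did not detect it. Without Mmp7, a choice made after seeing the data, it was 0.50, 0.59, 0.48, 0.77 and 0.88 from 1 to 16 weeks. Much of this balance was Mmp12. Without it the silica values were 0.23, 0.20, 0.10, 0.38 and 0.55 from 1 to 16 weeks, and at 1, 2 and 4 weeks silica and air rats overlapped. At 8 weeks silica rats then read 0.30 to 0.45 against at most 0.19 in air, and at 16 weeks 0.26 to 0.91 against at most 0.22, so the groups stayed apart at those times. Without both Mmp12 and Timp1 the 4-week value was -0.01. Leaving out Timp1 alone gave 0.32 to 1.03 over the times.

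**Figure D3:**
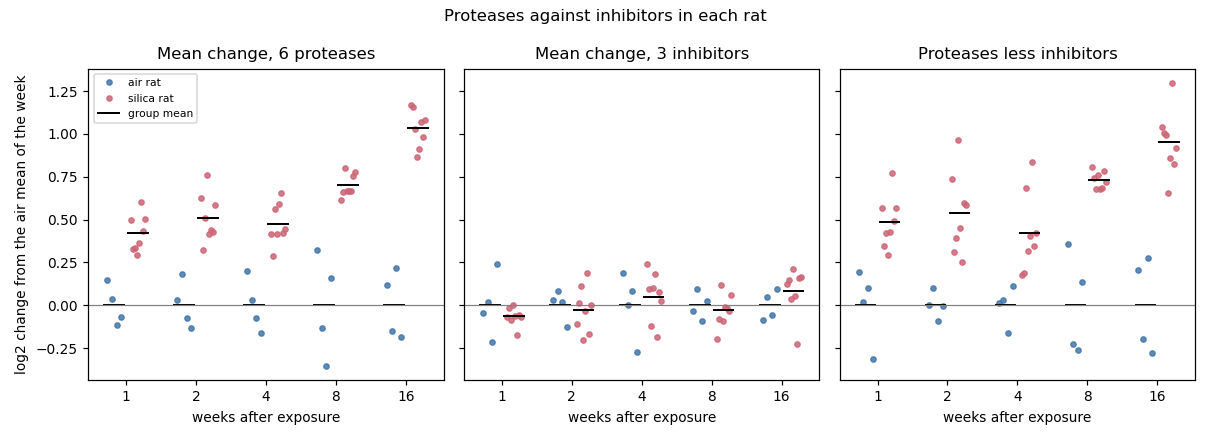
Mean log2 change from the air mean of the week in each rat, for the 6 proteases (left), the 3 inhibitors (middle) and their difference (right), by weeks after exposure: blue points are air rats, red points silica rats, black lines group means. The difference reaches a mean of 0.95 at 16 weeks, while the inhibitors' means stay between -0.07 and 0.08.

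The genes did not vary as 1 block from rat to rat. Correlations of deviations from the group means over 60 rats ran from -0.35 (Mmp8 with Timp1, and Mmp9 with Timp3) to 0.53 (Mmp12 with Mmp14). Mmp8 and Mmp9, both stored in neutrophils, had 0.44, and Mmp7 and Timp1 had 0.49. Mmp12 with its cluster neighbours had 0.20 (Mmp7) and 0.01 (Mmp8). These and the following correlations describe arrays that share runs and normalization.

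The rat-to-rat deviations of the 9 genes were set beside those of the marker lists. Of 9 tested macrophage markers 8 were higher after silica in the mean effect and none lower, and the log2 of their summed signal ran from 14.06 to 14.58 in air rats and from 14.48 to 15.03 in silica rats. Over all genes 14.6% were higher and 20.6% lower in the mean effect. Marco, a defining scavenger receptor of alveolar macrophages, was detected on no array. Deviations of Mmp12 had r = 0.67 with those of the list over 60 rats (0.88 in the 20 air rats, 0.39 in the 40 silica rats), those of Mmp7 0.55 and those of Mmp14 0.53. In the 20 air rats Mmp12 also had 0.87 with the type II cell markers, of which 6 of 8 were higher after silica, and 0.71 with the neutrophil markers. In the 40 silica rats these were 0.05 and -0.01, and the value with the fibroblast markers (0.43) was above that with the macrophage markers. With the macrophage mean as a covariate, a fit added after seeing the data, Mmp12 had a mean effect of 1.07 (adjusted p = 0.000726), while Mmp14 had 0.04 (adjusted p = 0.816) and Mmp7 -0.04 (adjusted p = 0.93). By week, Mmp12 then lost its call at 1 week alone (0.58, adjusted p = 0.751).

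Of 10 tested neutrophil markers 7 were higher and none lower (median 0.17), and the log2 of their summed signal ran from 11.49 to 12.27 in air rats and from 12.31 to 13.44 in silica rats. Among them Cd177 had a mean effect of 2.23 and S100a8 of 0.80, while Mpo (-0.04), Ngp (0.04) and Fcgr3a (-0.07) did not pass. Shares of all genes higher and lower were again 14.6% and 20.6%. The granule genes Elane and Ltf were detected on no array, and S100a9, Ngp and Mpo on 10, 11 and 26 of 60. Cd177 and S100a8 were the brightest markers (median signals 2635 and 1753), so the summed signal leans on them. At 1 week Cd177 alone of the 10 passed (2.06, adjusted p = 2.85e-09), where 3.79% of all genes tested did. S100a8 then had 0.34 (adjusted p = 0.204). Deviations of Mmp8 had r = 0.58 with those of the list and those of Mmp9 0.31. With the neutrophil mean as a covariate Mmp8 had a mean effect of -0.22 (adjusted p = 0.628), and Mmp12 1.54 (adjusted p = 0.00213). By week, Mmp12 then lost its calls at 1, 4 and 8 weeks (adjusted p = 0.102, 0.0646 and 0.0805). Under these covariates 1.96% (neutrophil) and 3.74% (macrophage) of all genes passed in the mean effect instead of 35.2%. The markers rose in the same rats as the proteases, so dust and cell make-up cannot be told apart.

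Over 60 rats the deviations of Timp1 and Timp2 correlated most with other lists. Those of Timp1 had r = 0.35 with the macrophage markers as well (0.47 in the 40 silica rats). For Timp3 the largest value was 0.36, with the type I cell markers. Deviations of Timp1 had r = 0.72 with those of 4 mesothelial markers (Krt19, Msln, Upk3b and Wt1; 0.76 in air rats and 0.72 in silica rats). The mean of these markers varied from 7.35 to 9.75 over all rats (log2 summed signal 12.57 to 13.37 in air and 12.45 to 13.20 after silica), and 1 of 4 was lower after silica. Deviations of Timp2 had 0.56 with those of 6 endothelial markers, all 6 of which were lower after silica in the mean effect (median -0.25), with a log2 summed signal of 14.26 to 14.68 in air rats and 13.83 to 14.48 in silica rats. Among all genes 20.6% were lower in the mean effect. Whether the share of pleura or of vessels in a sample set these levels was not tested.

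**Figure D4:**
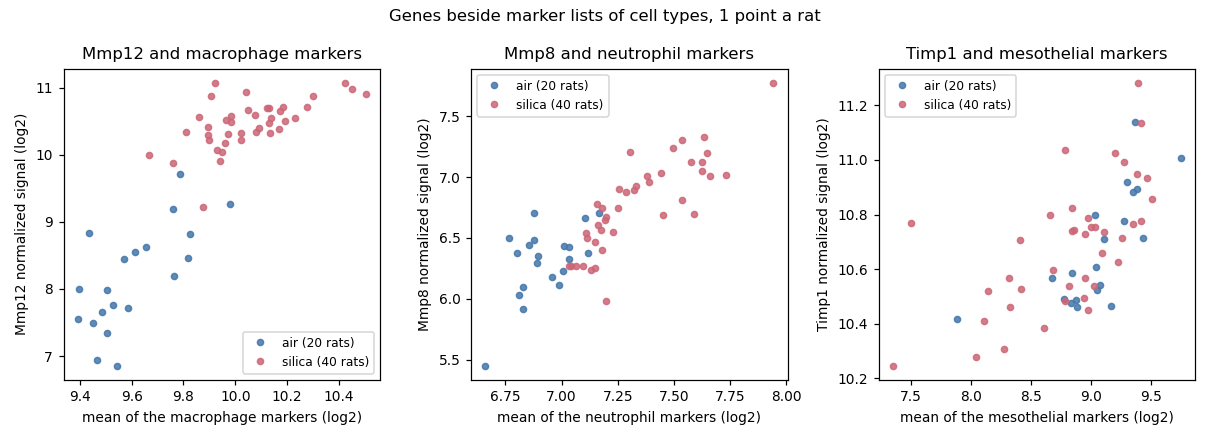
Normalized log2 signal of Mmp12, Mmp8 and Timp1 (vertical) against the mean log2 signal of the macrophage, neutrophil and mesothelial markers (horizontal), 1 point a rat, with 20 air rats in blue and 40 silica rats in red. Air and silica rats lie mostly apart for Mmp12, overlap at the lower end for Mmp8 and mix for Timp1.

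The genes most like each of the 9 were those with the highest correlation over the 60 arrays. For Mmp12 they were Slc26a4, the anion exchanger pendrin (r = 0.939, and 0.792 for deviations), Cd177, a neutrophil surface protein (0.933 and 0.744) and C4bpa, a complement-binding protein (0.923 and 0.794). For Mmp7 they were Spp1, which encodes osteopontin (0.883 and 0.567), and the chemokines Cxcl11 (0.871) and Ccl7 (0.87). These 6 genes had mean effects of 0.94 to 2.72. For Mmp8 they were Ifit1bl (0.869), the secreted peptide Prok2 (0.859) and the neutrophil chemokine receptor Cxcr2 (0.843), and for Mmp9 the antimicrobial peptide Camp (0.806), Pglyrp1 (0.788) and LOC684525 (0.782). For Mmp14 Ap3s1 (0.853) and the adaptor Dab2 (0.833) are given. Cd177, Cxcr2 and Camp are also on the neutrophil marker list.

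For Mmp2, Krt12 was followed by LOC291346 (0.726) and LOC363336 (0.721). For Timp1 the complement protease C1r (0.796), Bop1 (0.766) and Cpxm1 (0.749) came closest. For Timp2 they were the growth factor receptor Fgfr3 (0.918), the membrane protein Ehd2 (0.894) and Clstn1 (0.879), and for Timp3 Pdik1l (0.758), LOC497742 (0.752) and Zfp24 (0.747). The mean effects of the 6 genes closest to Timp1 and Timp3 lay between 0.07 and 0.22, and those closest to Timp2 between -0.23 and -0.13.

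Related family members were tested beside the 9 genes. Of 8 other matrix metalloproteinases that could be tested, out of 16 listed, none was higher and 3 were lower in the mean effect: Mmp16, a membrane-anchored relative of Mmp14 (-0.22 ± 0.03, adjusted p = 3e-07), Mmp11 (-0.22 ± 0.04, adjusted p = 7.71e-06) and Mmp23 (-0.28 ± 0.05, adjusted p = 7.99e-06). In this comparison 14.6% of all genes were higher and 20.6% lower, or 35.2% together. A share of 3 in 8 lies near that of calls in either direction, though all 3 calls here were lower. The list's median was -0.07, against -0.012 for all genes. Mmp13, a collagenase of rodents, had 0.04 ± 0.05 (adjusted p = 0.549). The clustered genes Mmp3, Mmp10, Mmp1 and Mmp1b were on the array and below the detection filter.

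Of 5 other inhibitors and regulators tested, 2 were higher and 1 was lower, beside the same shares of all genes. Reck, a membrane-anchored inhibitor of these proteases, fell by 0.27 ± 0.03 on the log2 scale (-0.27, adjusted p = 2.96e-11). A2m, a broad trap for proteases, rose by 0.37 ± 0.08 (adjusted p = 0.000263), and Cd44, a hyaluronan receptor that docks Mmp9 at the cell surface, by 0.26 ± 0.05 (adjusted p = 4.73e-06). Timp4 was not analysed here.

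Proteases of other classes were counted in the same way. Of 13 elastases, cathepsins and their inhibitors tested, 8 were higher and 3 lower (median 0.26), where 14.6% of all genes were higher and 20.6% lower. The cathepsins H (Ctsh, 0.44 ± 0.03, adjusted p = 9.98e-16), S (Ctss, 0.35 ± 0.03, adjusted p = 4.32e-12) and K (Ctsk, 0.77 ± 0.10, adjusted p = 2.94e-09) rose, and so did the cathepsin inhibitor Cstb (0.26 ± 0.03, adjusted p = 2.29e-10). Of 7 genes of the plasminogen system and proprotein convertases, 2 were higher and 3 lower (median -0.09). The protease inhibitor Serpine2 (0.59 ± 0.07, adjusted p = 1.1e-09) rose, and the convertase Pcsk6 (-0.26 ± 0.03, adjusted p = 7.21e-11) and the plasminogen activator urokinase, Plau (-0.26 ± 0.07, adjusted p = 0.0017), fell.

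**Figure D5:**
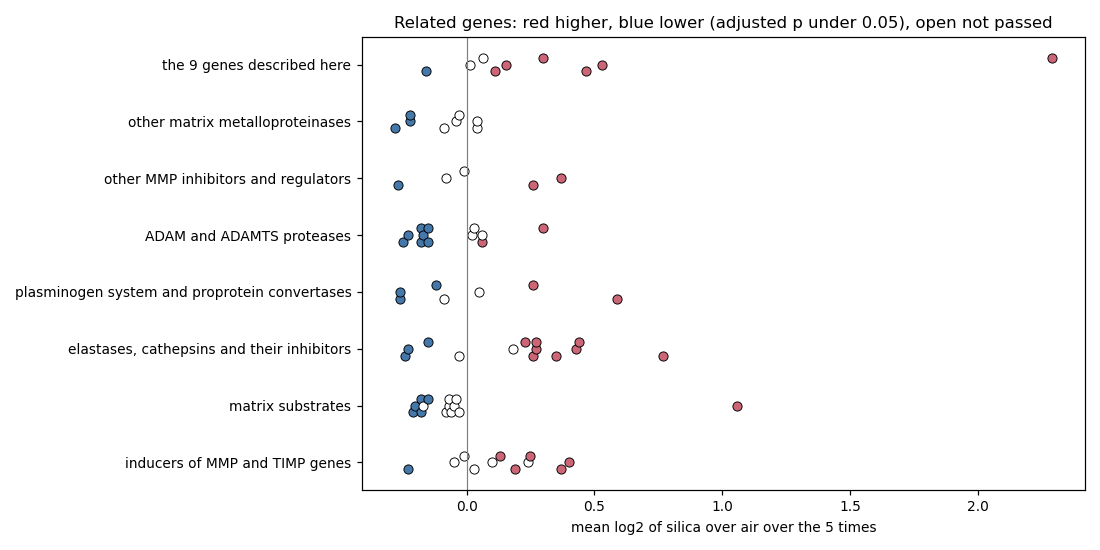
Mean log2 of silica over air over the 5 times for the 9 genes (top row) and for the tested genes of 7 related lists, 1 point a gene. Red points were higher and blue points lower at an adjusted p under 0.05, and open points did not pass. Mmp12 stands farthest to the right at 2.29, and none of the points in the row of other matrix metalloproteinases is red.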

How the data were processed

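Signals are average bead intensity per gene with a detection p-value, per the file headers, as the authors deposited them. The values processed by the authors, whose range is that of log2 signal, served as an alternative. The tools were limma, lumi and BeadStudio, per the submitters' processing notes, and their versions are not given in the sources used here. In 1 array (silica at 4 weeks, replicate 3) the signals were displaced by 2 lines from gene line 17 on and were moved back, which raised the correlation with the median array from 0.233 to 0.998. Leaving that array out changed no call of the 9 genes.

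Background was corrected by normexp with negative controls inferred from detection p-values (offset 16), followed by quantile normalization and log2. Genes detected on at least 4 arrays were kept, with the brightest row per gene. One limma 3.58.1 fit (R 4.3.3) gave each of 10 groups a mean, with 50 residual degrees of freedom. The fit was tested on simulated data. Names came from RefSeq's GRCr8 table. The members, the 7 related lists, the 12 marker lists and the rule for genes named (from each list up to 4 that passed, by adjusted p, plus the 3 genes closest to each member) were chosen with earlier results of these data known. Mmp13, Col1a1, Col3a1, Eln and Fos were named after their values were seen. Some genes that the rule names are not reported here. Array number, above all the 4 air rats a week, limits precision. Replicate numbers come from the labels and name different rats. The closing section gives the alternatives.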

Additional observations from a re-analysis of the deposited data

Results flagged for a closer look

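In 9 of 90 combinations of a gene and a group, 1 rat stood far from the rest of its group, where chance gives about 1 in 20 (Dixon's 95% limit on the gap to the nearest rat). Of these, 3 were Mmp2 in silica rats of 1 run of the deposited order: 6.30 at 1 week (replicate 6, nearest 5.50), 6.29 at 2 weeks (replicate 4, nearest 5.39) and 6.45 at 4 weeks (replicate 6, nearest 5.54). Another 2 were replicate 6 of silica at 16 weeks, which was high in Mmp8 (7.78, nearest 7.33) and low in Timp1 (10.25, nearest 10.74). The others were Mmp7 in silica replicate 1 at 1 week (5.54, nearest 4.94), Mmp9 in silica replicate 2 at 4 weeks (5.91, nearest 6.16), Timp1 in air replicate 4 at 16 weeks (10.78, nearest 10.49) and Timp2 in air replicate 4 at 4 weeks (9.99, nearest 10.33).

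The size of the silica effect differed among the 5 times for Mmp7 (adjusted p = 0.00623 by limma's F-test) and Mmp14 (adjusted p = 0.0194). Both were largest at 16 weeks, and the values by week are given above.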

How the results depend on the processing

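Of 3780 refits of single genes, 3652 kept their side of the threshold, 105 lost a call and 17 gained one. Another 6 lost a call with a change of sign, all with a marker covariate, and none passed in the new direction (limma adjusted p from 0.628 to 0.93). Among the 3652, the sign changed in 62 that passed neither way, to values from -0.27 to 0.06: 14 of Timp1, 11 of Mmp9, 10 each of Mmp2 and Timp2, 5 of Mmp14 and 4 each of Mmp7, Mmp8 and Timp3. Of the 9 genes, the number that passed from the first to the last time was 1, 2, 1, 5 and 5. Leaving out 1 rat gave 1 to 1, 1 to 3, 1 to 2, 3 to 5 and 4 to 6, and for the mean effect 6 to 7 (7 in the main setting), the slope 2 to 3 (2), the slope in air rats 0 to 0 (0) and the difference among times 1 to 2 (2). Median scaling gave 1 at 2 weeks, 2 at 8 weeks, 1 slope and 1 difference among times, and moved the share of all calls that were higher from 51.1% to 23.9% at 2 weeks, from 43.3% to 25.7% at 4 weeks, from 53.5% to 74.7% at 8 weeks, from 46.3% to 36% at 16 weeks and from 41.5% to 26.5% in the mean effect (cyclic loess gave 61.5% at 2 and 55.5% at 4 weeks). At 2 weeks no detection filter, array weights, the 40 arrays of complete runs and the strict rule (adjusted p under 0.01 and 1.5-fold) each gave 1, and the strict rule gave 2 at 8 weeks and 1 in the mean effect. A filter on 30 arrays removed Mmp7 and gave 1 slope and 1 difference among times, as did the 40 arrays with run as a block. Slopes numbered 1 without week 2 and 0 without week 16, and in air rats 1 without week 1. With the replicate block, Mmp9 in the mean effect missed the threshold (0.10, adjusted p = 0.0804) and Timp3 at 16 weeks passed (0.29, adjusted p = 0.0359). No other call changed. Of 20 same-numbered pairs of a week, 5 had a correlation of deviations over 0.1 (from -0.344 to 0.385). The median correlation was 0.057 within a replicate number and -0.019 between numbers. Such values cannot show whether rats were paired, and the main fit did not pair them. Marker covariates were added after seeing the data, as were runs and the balance without Mmp7 and without both Mmp12 and Timp1. The neutrophil covariate gave 0, 1, 0, 0 and 2 genes at the 5 times, 1 in the mean effect, 0 slopes and 1 difference among times. Under it the sign changed, without passing, for Mmp8 at 8 weeks (-0.20), 16 weeks (-0.26) and in the mean (-0.22) and for Mmp9 in the mean (-0.09). The macrophage covariate gave 0, 1, 1, 1 and 2, 2 in the mean effect, 0 slopes, 2 slopes in air rats and 0 differences among times. With it the sign changed, again without passing, for Mmp7 at 8 weeks (-0.10) and in the mean (-0.04). The balance moved without Mmp12 to 0.23, 0.20, 0.10, 0.38 and 0.55, without Mmp12 and Timp1 to 0.27, 0.15, -0.01, 0.45 and 0.62, without Timp1 to 0.80 at 8 weeks, with no background correction to 0.64 at 8 weeks, and with the authors' values to 0.56 at 8 and 0.65 at 16 weeks. These causes were not tested.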

Other observations

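Of 14 tested genes of matrix proteins that these enzymes cut, 1 was higher and 5 were lower in the mean effect, with a median of -0.07 against -0.012 for all genes. Of all genes 14.6% were higher and 20.6% lower, or 35.2% together. Col4a1, a basement membrane collagen, had -0.21 ± 0.03 (adjusted p = 4.45e-08 by limma), and Col6a1 -0.18 ± 0.03 (adjusted p = 1.53e-05). Spp1, which encodes osteopontin, a matrix protein and a substrate of several of these proteases, had 1.06 ± 0.16 (adjusted p = 3.81e-07) and 3.29 at 16 weeks. The fibrillar collagen genes Col1a1 (-0.03 ± 0.05, adjusted p = 0.6) and Col3a1 (-0.04 ± 0.03, adjusted p = 0.456) and elastin (Eln, -0.08 ± 0.05, adjusted p = 0.218) did not pass.

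Of 11 tested genes of cytokines and transcription factors known to induce Mmp and Timp genes, 5 were higher and 1 was lower, with a median of 0.13, beside the same shares of all genes. The cytokines Il1b (0.37 ± 0.05, adjusted p = 7.67e-09), Csf2 (0.40 ± 0.06, adjusted p = 2.41e-07) and Il1a (0.25 ± 0.04, adjusted p = 6.55e-06) were higher. Jun, a subunit of AP-1, was lower (-0.23 ± 0.04, adjusted p = 1.55e-05), and its partner Fos had 1.18 at 16 weeks (adjusted p = 0.00273) without passing in the mean effect (0.24 ± 0.14, adjusted p = 0.179). Of 12 Adam and Adamts proteases 2 were higher and 7 lower (median -0.15), again beside 14.6% and 20.6% of all genes. Among them Adam10, a shedding protease of the cell surface, had 0.30 ± 0.06 (adjusted p = 5.14e-05), Adamts1 -0.25 ± 0.04 (adjusted p = 3.68e-06), Adamts8 -0.17 ± 0.04 (adjusted p = 0.000269) and Adamts5, an aggrecanase, -0.23 ± 0.05 (adjusted p = 0.000583).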
